A study of Mus musculus with 4 samples.

Results

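Type 2 immunity is carried by a small set of cytokines and receptors, and 7 of its genes were followed through single-cell RNA sequencing of healing mouse skin: the cytokines Il4, Il5 and Il13, the transcription factor Gata3, the IL-33 receptor Il1rl1 (also called ST2), the IL-4 receptor alpha chain Il4ra and the IL-13 receptor subunit Il13ra1. They were taken by symbol from the 21739 gene symbols listed in any of the 4 libraries, and all 7 were listed in each library. The libraries came from C57/BL6j mice of 6 weeks of age with skin wounds, with 1 library per mouse, and the periwound skin was collected on day 7. In 2 mice (hucMSC-Exo replicates 1 and 2) the wounds had been injected with exosomes, small vesicles shed by cells, from human umbilical cord mesenchymal stem cells at 100 µg per injection. The 2 Control mice (replicates 1 and 2) had received the buffer PBS, so every wound was injected.

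The tissue field of the labels names sections of the gut, whereas the cell type, the protocol and the study name skin. The matrices carry letters in their names that group the libraries by replicate number, against the titles. By those letters Control 1 would stand with hucMSC-Exo 1, and Control 2 with hucMSC-Exo 2. The titles were used, every direction between the groups rests on them, and whether titles or letters are right was not settled here. The cells named neutrophil-like below numbered 56 and 347 in Control and 93 and 542 in hucMSC-Exo by the titles. By the letters they would be 56 and 93 against 347 and 542. The neutrophil counts that the study gives for the groups lie nearer the sums by the letters than those by the titles. After filtering, 952, 2074, 1416 and 2001 cells remained in the 2 Control and the 2 hucMSC-Exo libraries, with between 4779405 and 11243740 unique molecular identifiers (UMIs, 1 per captured transcript) in a library. Of 7172 distinct cell barcodes, 6 occurred in 2 libraries. Where 4 values follow each other they are in this order, by replicate number within Control and then within hucMSC-Exo. Levels are given as UMIs in every 1000000 UMIs of the same cells (CPM), and shares as the percentage of cells with at least 1 UMI. Intervals are exact binomial 95% intervals, which cover counting error only. Where no cell held a UMI, the limit given is instead 3 cells of the total, and it is a limit on cells with a UMI, not on cells that express the gene.

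As background, type 2 responses begin when damaged epithelium releases the alarmin IL-33, which binds ST2 on innate lymphoid cells of group 2 (ILC2), mast cells, basophils and some T cells. These cells then release IL-4, which drives T helper 2 differentiation and IgE, IL-5, which sustains eosinophils, and IL-13, which acts on epithelium, fibroblasts and macrophages. IL-4 and IL-13 both signal through the IL-4 receptor alpha chain, which pairs with the common gamma chain or with Il13ra1, and the signal reaches the nucleus through STAT6. GATA3 is the transcription factor that ILC2 and T helper 2 cells need to transcribe the cytokine genes.

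The 3 cytokine genes share a locus. In the mouse build GRCm38 (GENCODE annotation), Il4 lies on chromosome 11 from 53602982 to 53618669 on the minus strand, Il13 from 53631324 to 53634702 on the minus strand, and Il5 from 53720794 to 53725106 on the plus strand, so that 12.7 kb separate Il4 from Il13 and 86.1 kb separate Il13 from Il5. Gata3 lies on chromosome 2 (9857078 to 9890034, minus strand), Il1rl1 on chromosome 1 (40429570 to 40465415, plus strand), Il4ra on chromosome 7 (125552120 to 125579474, plus strand) and Il13ra1 on chromosome X (36112110 to 36171259, plus strand). The 250 bases before the RefSeq start (GRCm38.p6) of the cytokine genes, which were detected in different sets of cells, and of Il1rl1, which held the most GATA matches of the 7 members, are printed 5′ to 3′ on the gene's strand. Capitals mark matches, on either strand, to the GATA motif (GATA with A or T before it and A or G after it), to the STAT6 motif TTCNNNNGAA and to the NFAT core TGGAAA.
Il4, chr11:53618666-53618915, minus strand: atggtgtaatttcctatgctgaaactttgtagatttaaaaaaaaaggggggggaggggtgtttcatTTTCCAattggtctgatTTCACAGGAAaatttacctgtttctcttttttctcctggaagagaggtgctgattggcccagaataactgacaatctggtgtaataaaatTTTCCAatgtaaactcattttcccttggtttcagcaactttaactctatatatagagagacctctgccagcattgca
Il5, chr11:53720544-53720793, plus strand: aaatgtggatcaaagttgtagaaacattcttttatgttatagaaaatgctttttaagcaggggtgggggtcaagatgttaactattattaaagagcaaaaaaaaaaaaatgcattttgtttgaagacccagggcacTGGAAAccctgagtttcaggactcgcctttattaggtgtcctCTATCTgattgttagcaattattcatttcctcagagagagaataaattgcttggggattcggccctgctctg
Il13, chr11:53634703-53634952, minus strand: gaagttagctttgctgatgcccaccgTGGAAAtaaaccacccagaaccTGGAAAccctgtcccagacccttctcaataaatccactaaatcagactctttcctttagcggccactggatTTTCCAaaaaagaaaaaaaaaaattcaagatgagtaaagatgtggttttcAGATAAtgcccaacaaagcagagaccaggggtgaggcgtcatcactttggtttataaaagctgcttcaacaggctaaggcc
Il1rl1, chr1:40429320-40429569, plus strand: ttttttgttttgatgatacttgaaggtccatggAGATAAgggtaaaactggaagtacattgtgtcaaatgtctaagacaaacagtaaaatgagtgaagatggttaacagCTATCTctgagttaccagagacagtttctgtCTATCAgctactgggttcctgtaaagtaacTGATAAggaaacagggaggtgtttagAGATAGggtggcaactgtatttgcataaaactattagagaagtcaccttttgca
Il4 and Il1rl1 each had 2 listed starts, of which the one nearest the annotated start of the gene was taken. Il4 held 1 STAT6 match, from 167 to 158 bases before its start, and 2 NFAT matches, but no GATA match in this window. Il5 held 1 GATA match (72 to 67 bases before the start) and 1 NFAT match, and Il13 held 1 GATA match (81 to 76 bases before the start) and 3 NFAT matches. Il1rl1 held 5 GATA matches. None of the motifs was found in these windows of Gata3, Il4ra and Il13ra1. Among 32851 promoter windows of the same length, 26.5% held a GATA match, 5.85% a STAT6 match and 18.6% an NFAT match, so matches of these kinds are common, and a match in letters is not a bound site.

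Classes were named from marker genes, with the 7 members and 50 other genes of the pathway held out of the clustering, and each is called "-like" for that reason. The ILC2-like class held 206 cells (23 in Control 1, 32 in Control 2, 123 in hucMSC-Exo 1 and 28 in hucMSC-Exo 2). Rora was found in 94.2% of its cells, Il7r in 93.7% and Icos in 91.3%, against 30.8%, 38.5% and 25.4% of the other cells. The markers Calca and Areg were found in 34.0% and 31.6%, against 2.82% and 23.6% of the other cells. The T cell gene Cd3e was found in 2.43% of the class and Trdc in 7.77%. The 10 leading genes included Calca from the marker list but also Kit and Ccr6, which are known from other innate lymphoid cells too. At a coarser clustering (Leiden resolution 1) these cells fell in with others and the cluster could not be named. At the still coarser resolution 0.6 an ILC2-like class was named again. The basophil-like class held 101 cells, with Mcpt8 in 86.1% and Gata2 in 99.0%, but Control 1 contributed 1 cell against 59, 23 and 18 in the others. The CD4 T-like class held 673 cells in 2 clusters, of which one (290 cells) was led by Foxp3, the factor of regulatory T cells, and the other (383 cells) had Cd40lg among its leading genes. A mast-like class of 39 cells, with Cma1 in 97.4%, was described but reached 10 cells in only 1 library of each group. Its median of 1243 UMIs per cell was below that of the basophil-like cells (3142). Differences between classes below are a description without a test.

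Il4 was a basophil and mast cell transcript in these wounds. The basophil-like cells held 4343 CPM of Il4 in Control 2, 1655 in hucMSC-Exo 1 and 1437 in hucMSC-Exo 2, and the single Control 1 cell held 1 UMI. All 3 values lay above those of the mast-like cells, at 665 CPM in Control 2 and 733 in hucMSC-Exo 2. After thinning to 1000 UMIs, the share of cells with an Il4 UMI was 43.0% in basophil-like and 48.0% in mast-like cells, of which 25 of 39 were deep enough. An Il4 UMI was found in 71.2%, 39.1% and 66.7% of the basophil-like cells of Control 2, hucMSC-Exo 1 and hucMSC-Exo 2, and a positive cell held a median of 7.5 UMIs and up to 88. Of the 1219 Il4 UMIs in all kept cells, 89.7% came from basophil-like cells, 4.76% from CD4 T-like cells and 3.04% from mast-like cells.

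Outside these granulocytes Il4 was low. ILC2-like cells held 34.9, 19.6, 11.5 and 14.8 CPM in the 4 libraries, which rested on 4, 3, 6 and 2 UMIs. CD4 T-like cells held 0, 3.19, 0 and 65.7 CPM, so that 54 of their 58 Il4 UMIs came from hucMSC-Exo 2. Of these 54, 57.4% were in 1 cell. In neutrophil-like cells, which serve as the background for free RNA, 0.193% of 1038 cells held an Il4 UMI (0.0233% to 0.694%) at a median of 2096 UMIs per cell, against 5.34% of the ILC2-like cells (2.70% to 9.35%) at a median of 4216.

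**Figure D1:**
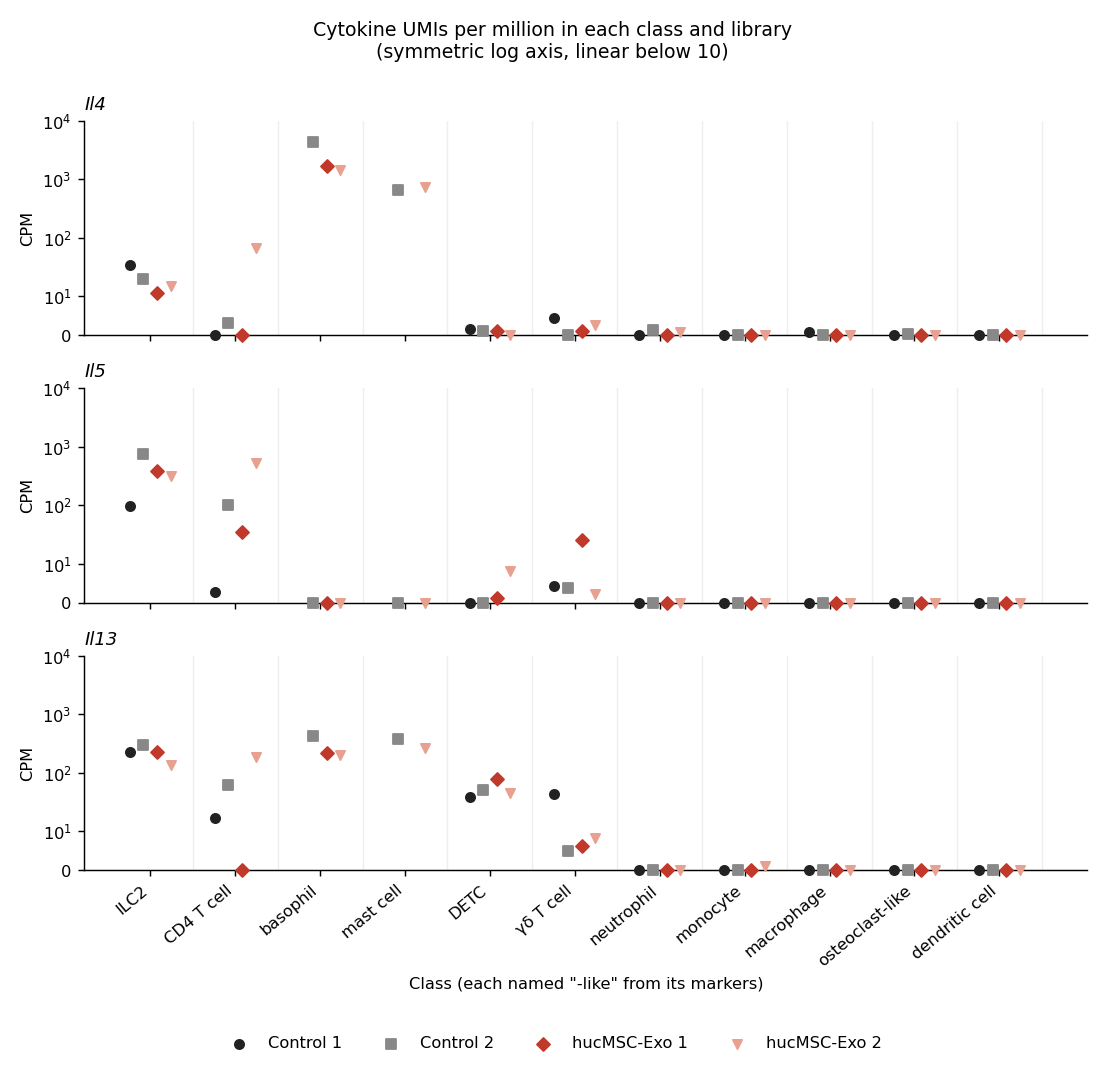
UMIs in every 1000000 (CPM, symmetric log axis that is linear below 10) of Il4, Il5 and Il13 in 11 classes, with 1 symbol per library that held at least 10 cells of the class. Il4 stands highest in basophils and mast cells, Il5 in ILC2 and CD4 T cells, and Il13 in all 4 of these classes and in dendritic epidermal T cells (DETC).

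Il5 had the opposite distribution, with no UMI in the 101 basophil-like and 39 mast-like cells. A count of 0 in 101 cells allows a share of up to 2.97%. ILC2-like cells held 95.9, 745, 386 and 311 CPM of Il5 in the 4 libraries. An Il5 UMI was found in 34.8%, 50.0%, 42.3% and 17.9% of them. The Control libraries thus gave both the lowest and the highest level. In hucMSC-Exo 2 only 5 cells were positive, and 1 of them held 73.8% of the UMIs. The ILC2-like and CD4 T-like levels overlapped across libraries (385 ± 270 and 168 ± 247 CPM, mean ± SD, n = 4).

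In the CD4 T-like cells Il5 was concentrated in few cells. The level was 2.83 CPM in Control 1, 101 in Control 2, 35.1 in hucMSC-Exo 1 and 534 in hucMSC-Exo 2, and 1, 10, 2 and 14 cells were positive. The positive cells held a median of 10 UMIs, the highest held 178, and the 10 highest cells held 83.8% of all 587 UMIs. In the ILC2-like cells the median was 2 UMIs, and the 10 highest cells held 52.6% of 369. Of the CD4 T-like UMIs, 532 were in the Cd40lg cluster, and the Foxp3 cluster held 55, of which 50 were in 1 cell of hucMSC-Exo 2. Of 1038 neutrophil-like cells none held an Il5 UMI, which allows a share of up to 0.289%.

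Il13 was the most widely spread of the cytokines. Mast-like cells held 380 and 267 CPM in Control 2 and hucMSC-Exo 2, basophil-like cells 419, 218 and 203 CPM in Control 2, hucMSC-Exo 1 and hucMSC-Exo 2, and ILC2-like cells 227, 301, 229 and 133 CPM in the 4 libraries. These ranges overlapped. CD4 T-like cells held 17.0, 60.6, 0 and 189 CPM, where the 0 lies under a floor of 5.01 CPM (3 UMIs).

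The dendritic epidermal T cells, gamma delta T cells that reside in the epidermis, also carried Il13. They held 39.1, 50.3, 76.9 and 45.3 CPM of it in the 4 libraries, and a UMI was found in 11.9% of 1016 cells (9.98% to 14.1%), with a median of 1 UMI in a positive cell. Among cells thinned to 1000 UMIs the share was 3.75%. The neutrophil-like cells had 0 of 1038, which allows up to 0.289%, and of 117 natural killer-like cells, at a median of 4475 UMIs against 3384, none held an Il13 UMI, which allows up to 2.56%. Gamma delta T-like cells, with an Il13 UMI in 19 cells, held from 4.85 to 43.1 CPM over the libraries, which overlapped the dendritic epidermal T cells. The dendritic epidermal T cells contributed 23.6% of the 813 Il13 UMIs, close in number to the ILC2-like cells (25.8%) and CD4 T-like cells (29.2%). The 10 highest cells held 34.9%, 38.1% and 86.1% of the Il13 UMIs of these classes, in the same order. Of the 237 CD4 T-like UMIs, 155 came from hucMSC-Exo 2. The dendritic epidermal T cells held 1.07 CPM of Il4 and 1.88 CPM of Il5 over all libraries.

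**Figure D2:**
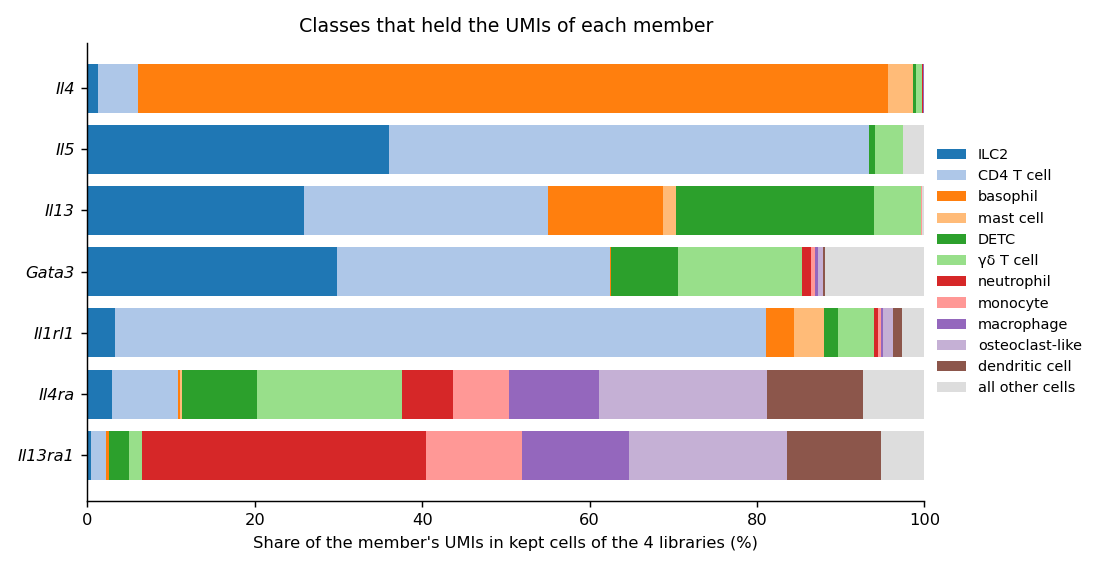
Share of each member's UMIs, over all kept cells of the 4 libraries, that lay in each class (bars sum to 100%; "all other cells" includes unnamed cells). Basophils held 89.7% of Il4, ILC2 and CD4 T cells most of Il5, CD4 T cells 77.8% of Il1rl1 and neutrophils 33.9% of Il13ra1, while Il4ra was spread over all classes.

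The cytokines were found together in the same cells more often in some classes than in others. Of the 34 Il13-positive basophil-like cells, 31 also held Il4, and Il13 was found in 48.4% of the Il4-positive cells against 8.11% of the others, at similar depth (medians of 3281 and 2835 UMIs). In the ILC2-like class, 38 cells held both Il5 and Il13, and Il13 was found in 46.9% of the Il5-positive cells against 28.0% of the others. The median depths were 4678 and 3899 UMIs, and the part of depth was not tested. In the CD4 T-like class, 15 cells held both, and Il13 was found in 55.6% of the Il5-positive cells against 2.01% of the others. All 18 Il4-positive and 26 of the 27 Il5-positive CD4 T-like cells held a Gata3 UMI, against 46.5% of the class. The Il5-positive cells had a median of 6789 UMIs against 4099 in the class, and the part of that depth in the shares was not tested. In the dendritic epidermal T cells, Gata3 was found in 15.7% of the Il13-positive cells and in 14.2% of the others. All these shares pool the 4 libraries. In the CD4 T-like class, hucMSC-Exo 2 gave 14 of the 27 Il5-positive, 13 of the 28 Il13-positive and 15 of the 18 Il4-positive cells. The part of differences between libraries in the shares was not tested. Cells of 1 library are not replicates, and these shares are given without a test.

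**Figure D3:**
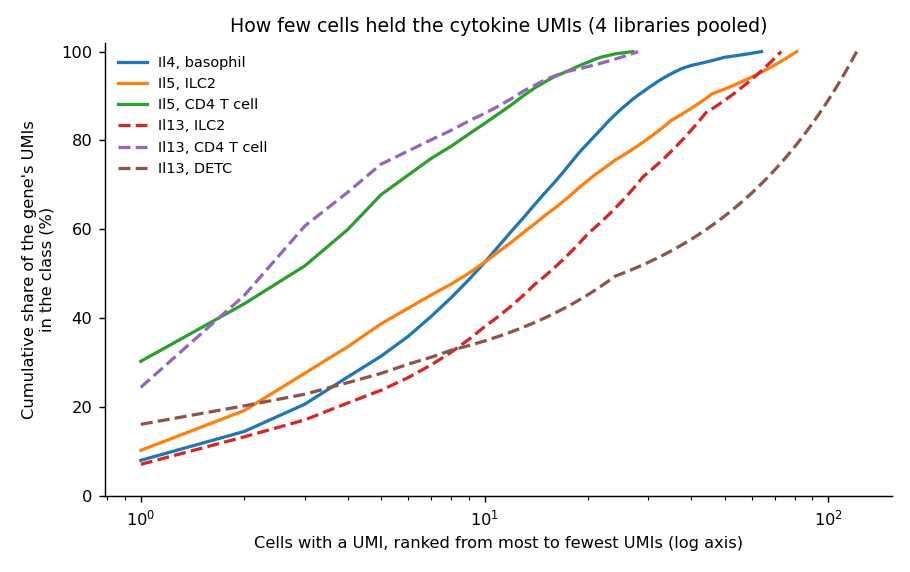
Cumulative share of a cytokine's UMIs (vertical, %) over the cells of a class ranked by UMIs (horizontal, log axis), pooled over the 4 libraries. The 10 highest cells held 83.8% of Il5 in CD4 T cells, 52.6% in ILC2 and 34.9% of Il13 in dendritic epidermal T cells (DETC).

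Gata3 was highest in ILC2-like cells, at 331, 1072, 866 and 756 CPM in the 4 libraries. CD4 T-like cells followed with 167, 267, 227 and 360 CPM, and the ranges of both classes overlapped through the low Control 1 value of the ILC2-like cells. Next came gamma delta T-like cells (97.0 ± 34.1 CPM), CD8 or NKT-like cells (72.9 ± 36.9 CPM), natural killer-like cells (61.5 ± 23.4 CPM) and dendritic epidermal T cells (52.9 ± 7.66 CPM, each n = 4), with overlapping ranges. A Gata3 UMI was found in 77.2% of the ILC2-like cells (70.8% to 82.7%), 46.5% of the CD4 T-like cells (42.7% to 50.4%) and 1.93% of the neutrophil-like cells. Basophil-like cells held 3 Gata3 UMIs in all. Within the CD4 T-like class, the Cd40lg cluster held 130, 310, 233 and 437 CPM and the Foxp3 cluster 217, 210, 221 and 247 CPM, and the former varied more between the libraries.

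Il1rl1, the receptor for IL-33, was highest in mast-like cells, at 1472 CPM in Control 2 and 1133 CPM in hucMSC-Exo 2. CD4 T-like cells held 108, 390, 494 and 621 CPM in the 4 libraries. The Foxp3 cluster accounted for 884 of their 1333 UMIs, and a UMI was found in 61.4% of its cells, against 18.5% of the Cd40lg cluster. Basophil-like cells held 193, 182 and 111 CPM. ILC2-like cells held 52.3, 150, 45.9 and 29.7 CPM, with a UMI in 9.71% of the cells (6.03% to 14.6%), which was above the 0.771% in neutrophil-like cells. Il1rl1 was thus detected in fewer ILC2-like cells than Gata3, Il5 or Il13.

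Il4ra was measured at a like level in most classes. The macrophage-like, osteoclast-like macrophage, dendritic-like and monocyte-like cells averaged 128 ± 15.6, 112 ± 14.4, 105 ± 14.8 and 101 ± 17.2 CPM (mean ± SD, n = 4), the gamma delta T-like cells 120 ± 34.4 CPM and the ILC2-like cells 91.2 ± 53.2 CPM, and each range overlapped the next. The share of cells with an Il4ra UMI ran from 15.9% in neutrophil-like to 54.9% in dendritic-like cells, whose median depths were 2096 and 10046 UMIs. Thinned to 1000 UMIs, these shares were 8.07% and 9.91%. Basophil-like cells held 7 UMIs of Il4ra in all (21.5 CPM). The mast-like cells held 95.0 and 199.9 CPM in Control 2 and hucMSC-Exo 2, on 7 UMIs in the whole class.

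Il13ra1, which joins Il4ra in the receptor that binds IL-13, was a myeloid transcript. Neutrophil-like cells held 189, 106, 56.6 and 135 CPM in the 4 libraries, and monocyte-like cells 76.5, 37.3, 50.3 and 47.8 CPM. Macrophage-like cells followed at 39.7 ± 8.48 CPM, osteoclast-like macrophages at 38.5 ± 22.6 CPM and dendritic-like cells at 32.6 ± 11.8 CPM (n = 4), with overlapping ranges. In CD4 T-like and ILC2-like cells, 1.93% and 1.94% of cells held a UMI, which is the background here, against 21.4% of the neutrophil-like cells at a lower depth. Both receptor chains were found together in 43 neutrophil-like cells, 45 macrophage-like cells, 67 osteoclast-like macrophages and 40 dendritic-like cells. Il13ra1 was found in 26.1% of the Il4ra-positive neutrophil-like cells and in 20.5% of the others.

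**Figure D4:**
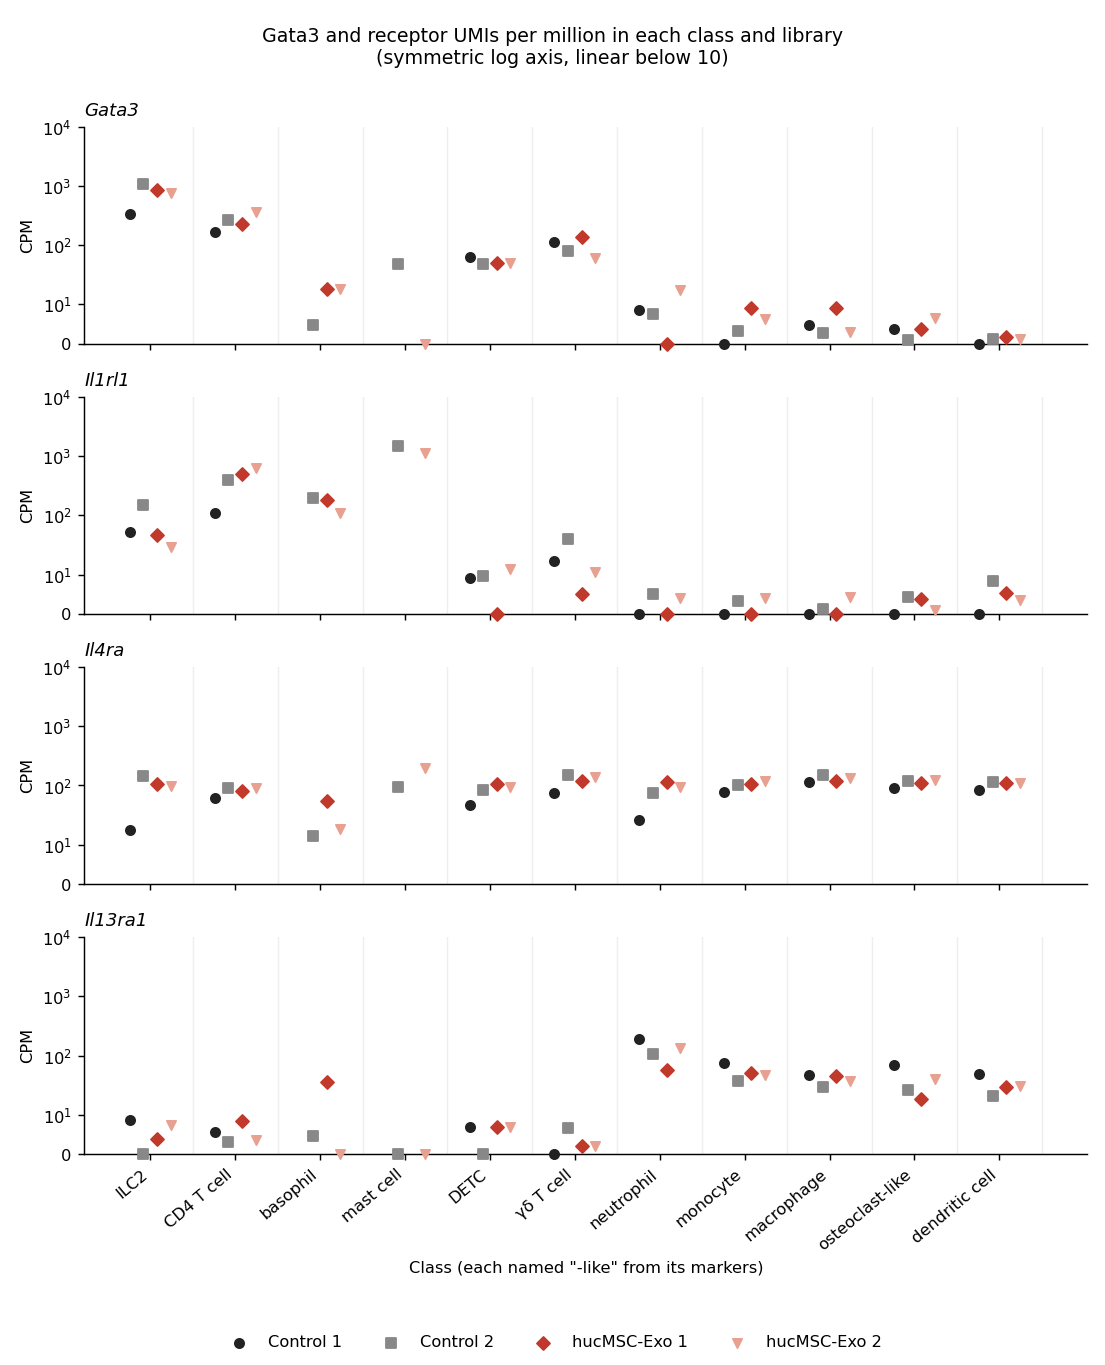
UMIs in every 1000000 (CPM, symmetric log axis that is linear below 10) of Gata3, Il1rl1, Il4ra and Il13ra1 in 11 classes, with 1 symbol per library that held at least 10 cells of the class. Gata3 and Il1rl1 stand high in lymphoid cells and, for Il1rl1, in basophils and mast cells, Il13ra1 in the 5 myeloid classes, and Il4ra near 100 CPM in most.

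The genes whose levels ran most like each member over 55 sums of a class in a library, among 8500 genes with at least 200 UMIs, were found by Pearson correlation of log2(CPM + 10). The sums share libraries and classes, and the values are a description. For Il4 these were Cyp11a1 (r = 0.97), Gata2 (r = 0.96) and Hs3st1 (r = 0.93). The first 2 were also markers by which basophils were named, and Hs3st1 was an ILC2 marker. For Il5 they were Hlf, Gata3 and Calca (r = 0.77, 0.75 and 0.73), and for Il13 they were Gcnt1, Rab4a and Phldb3 (r = 0.86, 0.84 and 0.81). For Gata3 they included Icos and Hlf (r = 0.88 and 0.85), of which Icos was a marker of ILC2, and for Il1rl1 they were Tmem64, Serpinb1a and Ldha (r = 0.80, 0.80 and 0.77). Il13ra1 ran with Mefv, Sh2b2 and Wfdc17 (each r = 0.85), and Il4ra, whose level differed least between classes, with Gas2l3, Ifngr2 and Gnb1 (r = 0.64, 0.63 and 0.63).

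Whether the members differed between hucMSC-Exo and Control mice was tested on the UMIs of each class summed per library, with edgeR's quasi-likelihood test over all genes and Benjamini-Hochberg adjustment. A gene is said to be called where its adjusted p fell below 0.05. In ILC2-like cells 0 of 1960 genes (0%) were called, and 55 (2.81%) had an unadjusted p under 0.05. Of the members, 4 passed the filter on low counts and none had such a p. Il5, with the levels above, had a log2 fold change of -0.31 ± 0.58 (SE, adjusted p = 0.999), and Gata3 one of 0.17 ± 0.41. Il13, at 227 and 301 CPM in Control against 229 and 133 CPM in hucMSC-Exo, had one of -0.52 ± 0.36. Il4ra, at 17.4 and 144 CPM against 107 and 96.4 CPM, had one of 0.22 ± 0.59. For each of these the values of the groups overlapped. Within replicate number 1 Il5 was higher in hucMSC-Exo (386 against 95.9 CPM), and within number 2 it was lower (311 against 745 CPM). Without Control 1, Control 2, hucMSC-Exo 1 or hucMSC-Exo 2, 7, 50, 12 and 8 genes were called. Il5 was among the 50 called without Control 2, with a log2 fold change of 1.83 (adjusted p = 0.0155), and the direction of Gata3 and Il4ra turned without Control 1, at -0.38 and -0.45.

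In CD4 T-like cells 0 of 6174 genes (0%) were called, and 179 (2.9%) had an unadjusted p under 0.05, among them 1 of the 5 members that passed the filter. That member was Il1rl1, at 108 and 390 CPM in Control and 494 and 621 CPM in hucMSC-Exo. Both hucMSC-Exo libraries lay above both Control libraries under the titles, with a log2 fold change of 1.12 ± 0.44 (edgeR, adjusted p = 0.999). The share of cells with an Il1rl1 UMI was 23.4% and 35.4% against 34.0% and 47.8%, and 10.4% and 18.1% against 24.5% and 29.1% after thinning to 1000 UMIs. Within the Foxp3 cluster the levels were 230 and 640 CPM against 904 and 720 CPM, and within the Cd40lg cluster 14.96 and 202 CPM against 98.4 and 553 CPM, so the groups overlapped in the latter only. By the letters of the matrices the Il1rl1 levels of the class would be 108 and 494 against 390 and 621 CPM, which overlap. Il1rl1 was called without Control 2 (log2 fold change 2.41) and when no genes were filtered (1.11, adjusted p = 0.000962).

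Il5 had the greatest fold change of the members in CD4 T-like cells, at 2.22 ± 1.06 on the log2 scale (edgeR, adjusted p = 0.999). It was higher in hucMSC-Exo within replicate number 1 (35.1 against 2.83 CPM) and within number 2 (534 against 101 CPM), but hucMSC-Exo 1 lay below Control 2. By the letters of the matrices the levels would be 2.83 and 35.1 against 101 and 534 CPM, which do not overlap. With the highest cell of each library left out, the levels were 0 and 62.7 CPM in Control and 13.5 and 323 CPM in hucMSC-Exo. The cells with over 3000 detected genes, which the filter removed, included cells of Control 2 with many Il5 UMIs: the left-out cells of that library held 237 Il5 UMIs, against 0, 2 and 1 in those of Control 1, hucMSC-Exo 1 and hucMSC-Exo 2. With cells over 3000 genes kept, the log2 fold change was 1.07. It was called without Control 1 (1.56), without Control 2 (6.63) and without hucMSC-Exo 1 (3.15), and without hucMSC-Exo 2 it turned to -0.81. Without the filter on low counts Il5 was called (adjusted p = 8.72e-12). Il13, Gata3 and Il4ra had log2 fold changes of 1.15 ± 1.08, 0.43 ± 0.29 and 0.13 ± 0.27. That of Il13 rested on hucMSC-Exo 2. Without it the fitted value was -8.02, which depends on the prior count and is no measure of size, since hucMSC-Exo 1 held no Il13 UMI. Il4 did not pass the filter. Without Control 1, Control 2, hucMSC-Exo 1 or hucMSC-Exo 2, 30, 129, 8 and 9 genes were called in all.

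**Figure D5:**
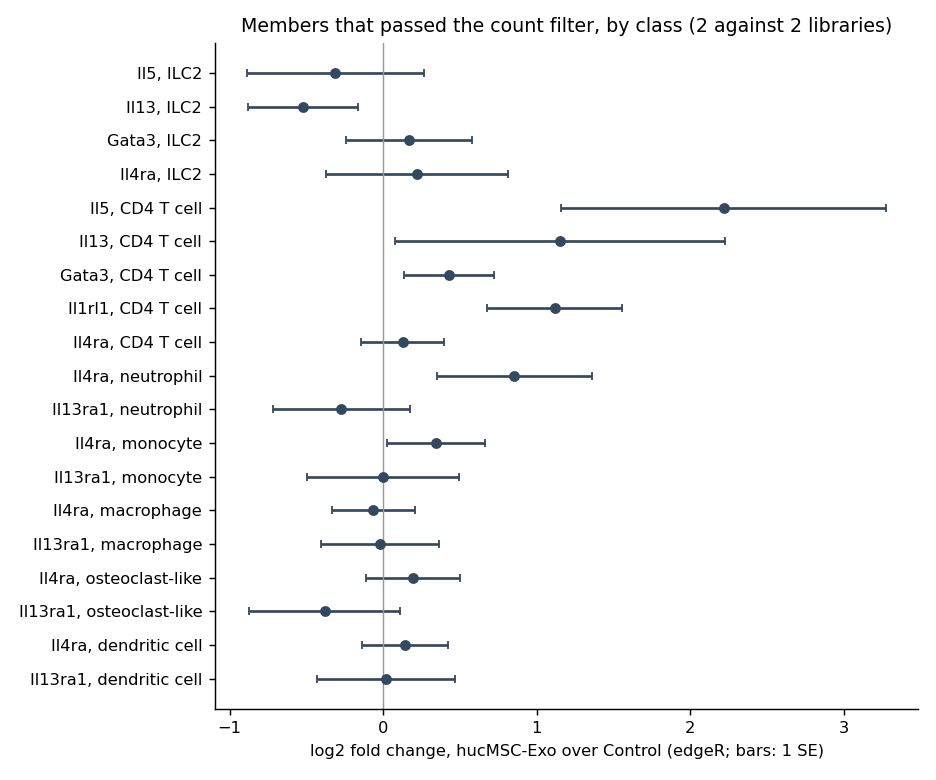
log2 fold change of each member, hucMSC-Exo over Control, in each class where it passed the filter on low counts (edgeR, 2 against 2 libraries, bars of 1 standard error). Il5 (2.22), Il13 (1.15) and Il1rl1 (1.12) in CD4 T cells lie farthest from 0, and no member was called.

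The basophil-like cells were not tested, since 1 Control library held 10 or more of them. Under the titles, their Il4 and Il13 levels were 4343 and 419 CPM in Control 2 and lower in both hucMSC-Exo libraries (1655 and 1437 CPM of Il4, 218 and 203 CPM of Il13). By the letters of the matrices Control 2 would stand with hucMSC-Exo 2. The levels would then be 1655 against 4343 and 1437 CPM for Il4, and 218 against 419 and 203 CPM for Il13, which overlap. The summed level of the 10 basophil markers was 13989, 13277 and 14188 CPM in Control 2, hucMSC-Exo 1 and hucMSC-Exo 2.

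In the myeloid classes, where Il4ra and Il13ra1 passed the filter, neither was called. The genes called were 0 of 3974 (0%) in neutrophil-like, 0 of 4300 (0%) in monocyte-like, 7 of 6164 (0.114%) in macrophage-like, 0 of 7045 (0%) in osteoclast-like macrophages and 0 of 5512 (0%) in dendritic-like cells, against 49, 78, 493, 133 and 73 at an unadjusted p under 0.05. Over these classes the log2 fold changes of Il4ra ran from -0.06 to 0.86 and those of Il13ra1 from -0.38 to 0.02. The greatest was that of Il4ra in neutrophil-like cells, at 25.7 and 75.1 CPM in Control and 113 and 95.2 CPM in hucMSC-Exo (0.86 ± 0.50, adjusted p = 0.999). The groups did not overlap there under the titles, but would by the letters of the matrices (25.7 and 113 against 75.1 and 95.2 CPM), and the low Control 1 value rested on 3 UMIs in 56 cells. The summed level of the 10 neutrophil markers was also lowest in Control 1 (54545 CPM, against 116282 to 131422 CPM in the other libraries), and its part in the result was not tested. Il13ra1 in the same cells had a value of -0.27 ± 0.45. With each library left out in turn, the numbers of called genes ran from 0 to 11 in neutrophil-like, 0 to 43 in monocyte-like, 23 to 190 in macrophage-like, 0 to 6 in osteoclast-like and 0 to 75 in dendritic-like cells. The highest of them was reached without Control 1 in neutrophil-like cells, without hucMSC-Exo 1 in osteoclast-like macrophages and without Control 2 in the other 3 classes.

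Over all kept cells 0 of 12117 genes (0%) were called and 182 had an unadjusted p under 0.05. In such sums, fewer cells of a type and less RNA per cell cannot be told apart. Il4, at 4.18 and 84.2 CPM in Control and 15.6 and 16.7 CPM in hucMSC-Exo, had a log2 fold change of -1.48 ± 1.17 (adjusted p = 1.00), which turned to 2.13 without Control 2, the library with 59 of the 101 basophil-like cells. Il5 lay at 2.93 and 21.9 CPM in Control and higher in both hucMSC-Exo libraries (38.6 and 56.9 CPM). By the letters of the matrices the Il5 values would be 2.93 and 38.6 against 21.9 and 56.9 CPM, which overlap, and those of Il4 4.18 and 15.6 against 84.2 and 16.7 CPM, which do not. The fold change of Il5 under the titles was 1.89 ± 0.84 on the log2 scale, with an adjusted p of 1.00. In hucMSC-Exo 1 the ILC2-like cells were 8.69% of the kept cells, against 1.40% to 2.42% in the other libraries, and they held 202 of its 249 Il5 UMIs, whereas in hucMSC-Exo 2 the CD4 T-like cells held 439 of 515.

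The share of cells with a UMI was compared between the groups for the 7 members in 7 classes over the 4 libraries with a two-sided exact permutation test, as 1 family of 49 tests. With 2 against 2 libraries the smallest p that this test allows is 0.33, so no difference could pass, and the lowest adjusted p was 1.

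The other genes of the pathway were followed as 5 lists of 50 genes, of which 8 to 29 genes passed the filter in a class, and none of them was called in any class. Il9, Il3, Il31 and Il5ra were not listed in any library, so no level of them can be given. In ILC2-like cells, the ligands of highest level were Csf2 (95.9 and 131 CPM in Control, 49.7 and 22.2 CPM in hucMSC-Exo, log2 fold change -1.51 ± 0.53, adjusted p = 0.999), a growth factor of myeloid cells, and Il2 (61.0 and 39.2 against 13.4 and 22.2 CPM), which did not pass the filter. Il33 held 0 to 8.72 CPM there and Il25 none. Of the other receptor subunits, the common gamma chain Il2rg led in ILC2-like and CD4 T-like cells and averaged 281 and 389 CPM there. In neutrophil-like cells the highest were Csf2rb, the beta chain shared by the receptors for IL-5, IL-3 and GM-CSF (309, 613, 413 and 783 CPM), Il1rap, which pairs with ST2 (146, 347, 260 and 318 CPM), Crlf2, the TSLP receptor (266, 165, 181 and 184 CPM), and Csf2rb2 (8.57, 83.8, 84.9 and 86.2 CPM). Basophil-like cells held more Csf2rb, at 1172, 2037 and 1640 CPM in Control 2, hucMSC-Exo 1 and hucMSC-Exo 2. Among signalling genes in CD4 T-like cells, Junb, Maf, Jak1 and Jak2 were highest (1737, 599, 299 and 228 CPM), and 11 of the 15 on the list had log2 fold changes above 0, with a list median of 0.25 against 0.00 over all genes.

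In macrophage-like cells, 10 of 15 genes known to respond to IL-4 and IL-13 passed the filter, 6 of them had log2 fold changes above 0, and the median was 0.32 against 0.00 over all genes. None was called, while 6 of the 10 had an unadjusted p under 0.05, against 8% of the genes tested in this class. The 6 were not all of one sign, with Ccl8 and Arg1 (below) among them. Over all genes such a p was reached by 493 of 6164 here and by 141 of 7201 at Leiden resolution 1. With cells over 3000 genes kept it was reached by 220 of 5311, so the share varied with the processing. The summed level of the 11 macrophage markers was higher in hucMSC-Exo, at 29602 and 31861 CPM in Control against 35615 and 38023 CPM. Its part in the values of this list was not tested. The chemokine Ccl8 was highest, at 4947 and 5889 CPM in Control and 9895 and 10072 CPM in hucMSC-Exo (log2 fold change 0.87 ± 0.18, adjusted p = 0.104), and the groups did not overlap under the titles. By the letters of the matrices they would be 4947 and 9895 against 5889 and 10072 CPM, which overlap. The mannose receptor Mrc1 (443 and 1522 against 1360 and 1295 CPM) and F13a1 (256 and 488 against 420 and 426 CPM) overlapped. Retnla, a classical target of STAT6 in macrophages, was near 10 CPM in Control (10.3 and 9.70), at 0 in hucMSC-Exo 1 and at 807 CPM in hucMSC-Exo 2. Arg1, which was not among the highest 4 and was added after its value was seen, had a log2 fold change of -1.51 ± 0.50 (adjusted p = 0.380), opposite in sign to that of Ccl8. The last list, with the eosinophil chemokine Ccl11, the chemokine receptor Ccr8 and the prostaglandin D2 receptor Ptgdr2, held at most 30.6 CPM in a library of any tested class with 10 or more cells, reached by Ccr8 in ILC2-like cells.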

How the data were processed

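The data were single-cell 3′ RNA libraries of cells from periwound mouse skin, 1 library per mouse, with 2 Control and 2 hucMSC-Exo mice. The authors aligned the reads and counted UMIs with Cell Ranger 6.1.2 against mm10, and deposited a matrix of counts per gene and cell for each library. The cells deposited were fewer than the study's text gives, and the study states that doublets were removed with DoubletFinder, but not whether before or after deposit.

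Cells were kept if they held between 200 and 3000 genes and no more than 10% of their UMIs were mitochondrial. Cells were clustered in scanpy 1.11.5 (2000 variable genes, 30 components, 15 neighbours, Leiden resolution 1.6) with the members and pathway genes held out, and clusters were named from marker lists. Resolution 1.6 was chosen after seeing the data, because at resolution 1 ILC2 shared a cluster with T cells. No further doublet was removed, and leaving out the 10% of cells with the highest Scrublet score was an alternative. Library depth after filtering ran from 4779405 to 11243740 UMIs.

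Counts were summed per library and class and, for ILC2-like, CD4 T-like and the 5 myeloid classes and all kept cells, tested with edgeR 4.0.16 (TMM, filterByExpr, quasi-likelihood test, Benjamini-Hochberg adjusted p under 0.05) in R 4.3.3. Basophil-like cells reached 10 cells in too few libraries, and the other T cell and natural killer-like classes were described but not tested between the groups. The script was tested on simulated data. DESeq2 1.42.0, other size factors, no filter on low counts, a replicate block, other clusterings and leaving out each library were alternatives. Where counting gave 0, a floor of 3 counts is given. For shares compared at equal depth, cells were thinned to 1000 UMIs and shallower cells left out. The mice were separate, with 1 library each, so p-values weigh a group difference against the spread between libraries. In that spread, mouse, handling and the sampling of cells cannot be told apart.

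The members and gene lists were chosen with earlier results of these data known. Named were the 7 members, pathway genes that were called or else the 4 of highest level in a list and class, and the 3 genes most like each member, of which 1 is not reported here.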

Additional observations from a re-analysis of the deposited data

Results flagged for a closer look

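Pairs of classes were flagged where a member's values did not overlap between the groups and stood in opposite order. All 7 members were searched, by level and by share of cells, in the tested classes where the member had enough UMIs. With 2 libraries per group, values that do not differ fail to overlap with a probability of 0.33. Of the 49 comparisons of shares, 5 did not overlap. The share of all genes that did not overlap was not counted, so the flags are no result about the members. The Il1rl1 levels did so in 2 classes. Il1rl1 was not called in CD4 T-like cells, and in ILC2-like cells it did not pass the filter on low counts and was not tested. In CD4 T-like cells it was higher in both hucMSC-Exo libraries (mean 557 CPM against 249 CPM in Control), and in ILC2-like cells it was lower in both (37.8 against 101 CPM). The changes differed by 372 CPM. In ILC2-like cells 20 cells held an Il1rl1 UMI in all. By the letters of the matrices the ILC2-like levels would be 52.3 and 45.9 against 150 and 29.7 CPM, which overlap. The share of cells with an Il4ra UMI likewise averaged 10.0% in Control and 18.3% in hucMSC-Exo in neutrophil-like cells, and 52.1% and 45.1% in osteoclast-like macrophages, a difference of 15.2 percentage points between the changes. After thinning to 1000 UMIs, the osteoclast-like shares were 6.90% and 11.0% in Control and 8.84% and 9.52% in hucMSC-Exo, so that the groups overlapped. By the letters of the matrices, the unthinned shares would be 5.36% and 19.4% against 14.7% and 17.2% in neutrophil-like cells. In osteoclast-like macrophages they would be 55.2% and 47.9% against 49.0% and 42.3%, and both classes overlap. Neither difference between classes was tested.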

How the results depend on the processing

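No member was called in the reported tests, and under the alternatives 10 of 312 fold changes over 26 results were called and 35 changed direction. With no filter on low counts, 9 genes were called in ILC2-like, 24 in CD4 T-like, 4 in neutrophil-like, 14 in monocyte-like, 83 in macrophage-like, 8 in osteoclast-like and 8 in dendritic-like cells. DESeq2 called 1 gene in osteoclast-like and 1 in dendritic-like cells. In macrophage-like cells, against 7 genes reported, DESeq2 called 10, and 0 were called at Leiden resolution 1, 0 at 0.6, 0 with cells over 3000 genes kept and 1 without doublets. Leaving out 1 library at a time gave 7 to 50 called genes in ILC2-like, 8 to 129 in CD4 T-like, 0 to 11 in neutrophil-like, 0 to 43 in monocyte-like, 23 to 190 in macrophage-like, 0 to 6 in osteoclast-like and 0 to 75 in dendritic-like cells and 0 to 2 over all kept cells. The lone library of a group was then assumed to vary like the other group. The cause of these changes was not tested.

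With the replicate number as a replicate block, 10 genes were called in CD4 T-like and 0 in macrophage-like cells, and Il5 (log2 fold change 2.55, adjusted p = 2.74e-05) and Il1rl1 (1.36, adjusted p = 0.00896) were among those in CD4 T-like cells. The direction turned under this block for Il5 in ILC2-like (0.18), Il13ra1 in monocyte-like (0.056) and Il13ra1 in macrophage-like cells (0.13). The numbers were not shown to pair the mice: deviations of same-numbered libraries correlated between -0.199 (ILC2-like) and 0.189 (all kept cells). With crossed numbers as a block, added after seeing the data, 1 gene was called in ILC2-like cells.

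Other reversals were small. Il5 in ILC2-like cells was 0.11 without doublets. Il13ra1 in monocyte-like cells was 0.031 with no filter, 0.10 at Leiden resolution 1, 0.015 at 0.6 and 0.23 without doublets. Il13ra1 in macrophage-like cells was 0.0024 by DESeq2 and 0.16 with cells over 3000 genes kept. Il13ra1 in dendritic-like cells was -0.029 by DESeq2, -0.026 at Leiden resolution 1, -0.17 at 0.6 and -0.0099 with members among the variable genes.

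Leaving out 1 library turned a direction in these ranges of log2 fold change. In ILC2-like cells they were -1.05 to 1.83 for Il5, -0.38 to 1.25 for Gata3 and -0.45 to 2.49 for Il4ra, and in CD4 T-like cells -0.81 to 6.63 for Il5, -8.02 to 2.59 for Il13 and -0.057 to 0.49 for Il4ra. For Il13ra1 they were -0.97 to 0.092 in neutrophil-like, -0.62 to 0.47 in monocyte-like, -0.36 to 0.48 in macrophage-like, -1.23 to 0.21 in osteoclast-like and -0.58 to 0.56 in dendritic-like cells. For Il4ra they were -0.18 to 0.077 in macrophage-like and -0.064 to 0.51 in dendritic-like cells. Over all kept cells they were -2.41 to 2.13 for Il4, -0.018 to 2.26 for Il1rl1, -0.047 to 0.83 for Il4ra and -0.58 to 0.57 for Il13ra1.

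The class of highest level stayed the same for 4 of 7 members without doublets, since mast-like cells then fell under 10 cells per library. At Leiden resolution 1, with no ILC2-like class, Il5 and Gata3 were highest in CD4 T-like cells. ILC2-like cells at Leiden resolution 1, osteoclast-like macrophages there and without doublets, and basophil-like cells throughout could not be fitted. The tests of shares of cells cannot pass with 2 libraries per group and say nothing about stability. Few positive cells and 2 mice per group limit every group comparison.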
